A study of Mus musculus with 51 samples.

Results

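In cells that lacked the maternal supply of SMCHD1, the step described here is the 12 h from day 2 to day 2.5, during which the Wnt pathway was switched on. The members were chosen by their labels alone. They are the 7 RNA-seq libraries, out of 51 samples in the series, that the labels give as maternally deleted and as day 2 (4 libraries) or day 2.5 (3 libraries). All 7 came from mouse embryonic stem cells (mESCs) with the genotype Smchd1[del/+], labelled as male and, except for day 2.5 replicate 3, whose labels give no strain, as C57BL/6/Cast F1. In this genotype the allele inherited from the mother had been deleted by Zp3-Cre, a recombinase expressed in the growing oocyte. The embryos that gave these lines therefore started without the oocyte's SMCHD1, a chromatin protein involved in gene silencing, but kept an intact paternal allele. The cells were driven towards neuromesodermal progenitors (NMPs). By the study's methods they received 10 ng/mL of basic FGF from day 0, and 5 μM CHIR99021 was added from day 2, so the day 2 cells had FGF alone and the day 2.5 cells had FGF and 12 h of CHIR99021. The study describes no day 2.5 cells without CHIR99021, so its effect cannot be told apart from 12 h of further culture. Replicates 1 to 3 were labelled as line 1 and replicate 4 as line 2. The labels thus give line 1 for all 3 day 2.5 libraries, whereas the study's text describes them as coming from more than a single line, so how many lines stand behind day 2.5 is not settled. The study describes its replicates as technical replicates of the lines, so p-values here measure the spread between these libraries and may reflect technical spread only.

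CHIR99021 inhibits the kinase GSK3. Without Wnt signal, GSK3 marks β-catenin for destruction, and when GSK3 is inhibited β-catenin accumulates, enters the nucleus and activates target genes together with DNA-binding factors of the TCF/LEF family. In the late gastrula, Wnt and FGF signals keep the NMPs of the tail end of the embryo, which express Tbra (brachyury, T) together with Sox2 and give rise to both spinal cord and paraxial mesoderm. Wnt signalling and the CDX transcription factors also start the sequential opening of the Hox clusters, in which genes at the 3′ end (Hox1) are switched on before those at the 5′ end (Hox13).

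The levels are log2 RPKM values as deposited, that is, log2 of the reads scaled to the exon length of the gene and to the depth of the library, for 34 pluripotency and differentiation factors and all 39 Hox genes. Given each gene's exon length, the values corresponded to whole numbers of reads, and the depth so recovered was 10279130 to 126805800 reads at day 2 and 28200610 to 43294575 reads at day 2.5. A gene without reads carried the value of 0.9 reads, so its level was set by the depth of the library, and the deepest library, day 2 replicate 4, gave the lowest such values. Day 2.5 replicate 3 stood apart. Its level of Ctnnb1, the gene for β-catenin, was 4.77, against 6.30 to 7.49 in the other 6 libraries, and its level of Pou5f1 was 4.42 against 7.36 to 8.69. It was the lowest of the 3 day 2.5 libraries for 28 of the 34 factors and the highest for 28 of the 39 Hox genes. Results are therefore given with and without it, and its part in the differences was otherwise not tested. Smchd1 itself is not among the 73 genes.

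Among the factors, 10 of 34 (29.4% of those tested) rose between day 2 and day 2.5 in the maternal null cells at an adjusted p under 0.05 in limma, a linear model that shares the estimate of spread across genes. None of the 34 (0.0%) fell by that test. At an unadjusted p under 0.05 the counts were 12 higher and 2 lower, and a count-based fit (limma voom on the recovered reads) called 11 higher and 0 lower. The 10 were the 4 axis transcription factors Tbra, Nkx1-2, Cdx1 and Cdx2, the 4 ligands Fgf8, Wnt3a, Wnt5a and Wnt5b, and both feedback inhibitors of Wnt signalling, Axin2 and Dkk1. Without day 2.5 replicate 3 the same 10 were called, with Gbx2 and Klf4 in addition. The 34 genes are a choice of the study's authors, so this share describes the table and not the transcriptome. Over the 34 factors the median difference was 0.35 (log2 RPKM, day 2.5 minus day 2). When each library was instead centred on the median of its 34 factors, which moved by 1.93 between the days, the calls were 10 higher and 20 lower, so directions below are those of the deposited scale. The 10 called factors are among those that set this median, so their rise enters the shift taken from every gene. Centring on Ctnnb1 and Gsk3b, which moved by −0.27, gave 13 higher and 0 lower.

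**Figure D1:**
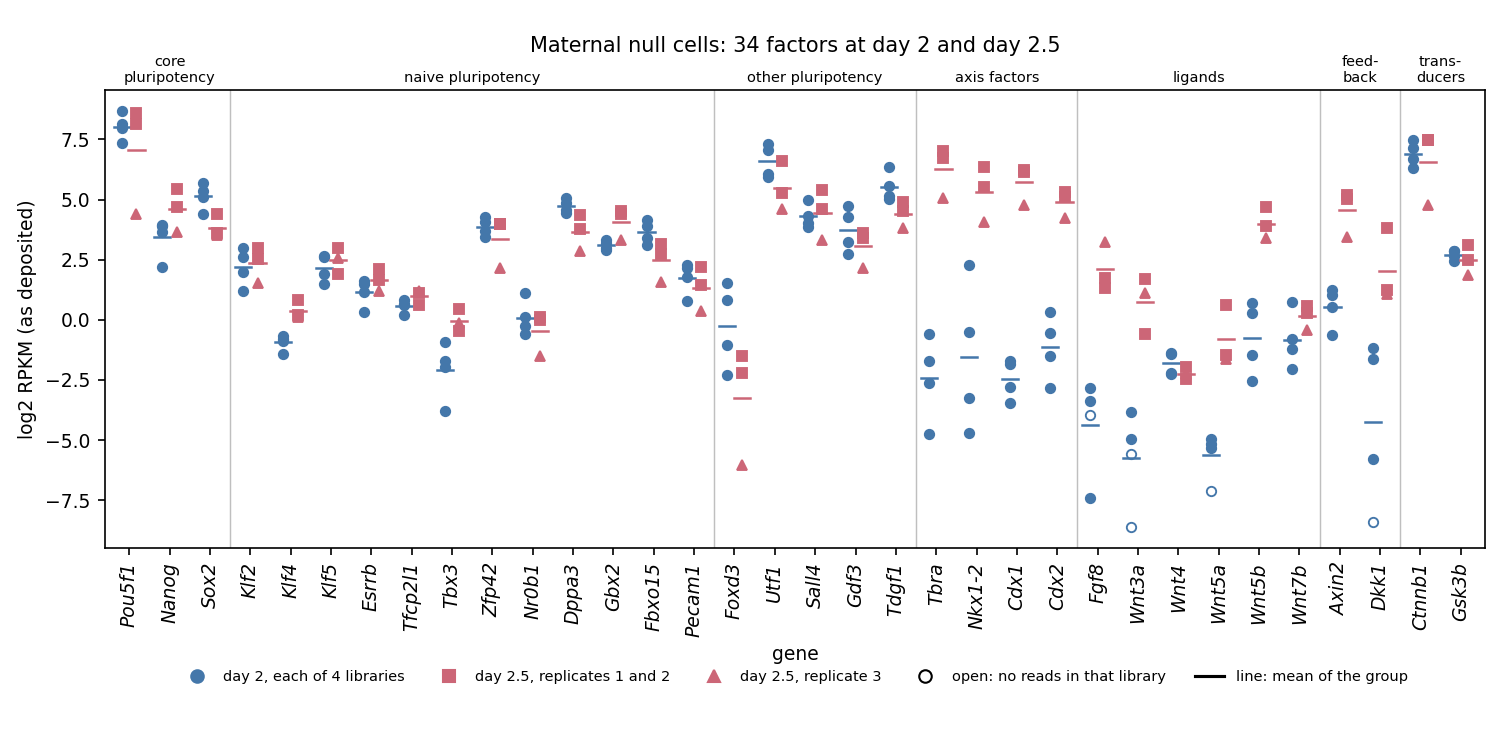
Level of each of 34 factors (x axis, grouped by role) in log2 RPKM (y axis) in the 4 day 2 libraries (blue circles) and the 3 day 2.5 libraries (red, with replicate 3 as triangles), where lines are group means and open symbols mark libraries without reads of the gene. The 4 axis factors, Axin2 and Dkk1 stand higher in every day 2.5 library than in any day 2 library, whereas the groups of Pou5f1, Ctnnb1 and Gsk3b overlap.

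Tbra, the T-box factor of the primitive streak and of NMPs, stood at −1.72, −0.57, −2.61 and −4.74 log2 RPKM in day 2 replicates 1 to 4 and at 6.71, 7.01 and 5.06 in day 2.5 replicates 1 to 3. In reads this was 16, 16, 6 and 11 against 7736, 12902 and 2177. The groups lay far apart, and the lowest Tbra level came from line 2. Tbra showed the largest difference of the 73 genes, 8.67 ± 0.97 (SE, n = 4 and 3; limma adjusted p = 0.000196), a 407-fold difference of the geometric means that ranged from 238-fold to 623-fold on leaving out each library in turn.

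Cdx1, a caudal-type homeobox factor that acts on Hox genes, stood at −1.73, −1.85, −2.79 and −3.47 at day 2 and at 6.21, 6.15 and 4.78 at day 2.5. Its difference was 8.17 ± 0.62 (limma adjusted p = 1.79e-05), the smallest standard error of the 10. Its paralogue Cdx2 went from 0.31, −0.54, −2.84 and −1.51 to 5.12, 5.33 and 4.23, a difference of 6.03 ± 0.76 (limma adjusted p = 0.000336). Within each of the 3 day 2.5 libraries Cdx1 was therefore above Cdx2, while at day 2 Cdx1 was below Cdx2 in 3 of 4 libraries. Nkx1-2, a homeobox gene of the caudal epiblast, was the least even of the axis factors at day 2, with −0.49, 2.26, −4.69 and −3.27, and reached 5.54, 6.34 and 4.05. The difference was 6.86 ± 1.50 (limma adjusted p = 0.00569).

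Of the 6 ligands, 4 rose. Fgf8, the FGF ligand of the caudal embryo, had 3, 0, 3 and 1 reads at day 2 and 143, 148 and 360 at day 2.5, and it was the only 1 of the 10 called factors that was highest in day 2.5 replicate 3. Wnt3a, the ligand that maintains NMPs, had 2, 2, 0 and 0 reads and then 59, 390 and 170. The differences were 6.49 ± 1.08 for Fgf8 and 6.50 ± 1.09 for Wnt3a (limma adjusted p = 0.00121 for each). Because no reads were found in some day 2 libraries, these sizes depended on the floor. When values were raised to the level that 0 reads gave in the shallowest library, the folds fell from 90.1 to 49.4 for Fgf8 and from 90.7 to 43.5 for Wnt3a, and both calls stood.

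Wnt5a, a ligand known mostly for β-catenin-independent signalling, stood at −5.16, −5.33, −7.10 and −4.95 at day 2 and at −1.47, 0.63 and −1.62 at day 2.5. Its close relative Wnt5b stood at 0.70, 0.27, −1.48 and −2.56 and then at 4.69, 3.92 and 3.41. The differences were nearly equal, 4.82 ± 0.76 and 4.77 ± 0.83 (limma adjusted p = 0.00121 and 0.00135), but per length Wnt5b was the more abundant in every library. The call of Wnt5a was lost on the log2(RPKM + 1) scale, with a difference of 0.70 and an adjusted p of 0.0989. The other Wnt ligands did not pass the test. Wnt7b differed by 0.97 ± 0.69 (limma adjusted p = 0.314) and Wnt4 by −0.42 ± 0.47 (limma adjusted p = 0.499), and for both the libraries of the days overlapped.

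Axin2, a scaffold of the β-catenin destruction complex and a general Wnt target gene, stood at 1.24, 1.02, 0.53 and −0.65 at day 2 and at 5.03, 5.20 and 3.43 at day 2.5. It was the called factor with the highest day 2 level and the smallest difference, 4.02 ± 0.66 (limma adjusted p = 0.00121), a 16.2-fold difference. Dkk1, a secreted antagonist of the Wnt co-receptors, had 1, 8, 17 and 0 reads at day 2 and 183, 1472 and 146 at day 2.5. Its difference of 6.30 ± 1.70 had the largest standard error of the 10 (limma adjusted p = 0.0178). Leaving out day 2 replicate 1 or day 2.5 replicate 2 ended the Dkk1 call, with 5.79 (adjusted p = 0.0563) and 5.42 (adjusted p = 0.0876). With the common floor its fold fell from 79.0 to 35.5.

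The transducers themselves did not pass the test in either direction. Ctnnb1 stood at 7.17, 7.49, 6.68 and 6.30 at day 2 and at 7.49, 7.47 and 4.77 at day 2.5, a difference of −0.33 ± 0.74 that turned to 0.57 ± 0.47 without day 2.5 replicate 3. Gsk3b, which codes for a kinase that CHIR99021 inhibits, stood at 2.45, 2.85, 2.66 and 2.85 and then at 2.49, 3.13 and 1.86, a difference of −0.21 ± 0.48 that turned to 0.11 ± 0.40 without that library. The limma adjusted p was 0.709 for each.

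Promoter sequences (250 bases before to 50 bases after the start of a gene) from RefSeq, build GRCm38.p6, were matched for 45 of the 73 genes. The letters CTTTGA, the core of the element bound by TCF/LEF factors, were searched on both strands (as CTTTGA or TCAAAG). They occurred in 3 of 9 promoters of called factors, in 2 of 15 promoters of called Hox genes and in 5257 of all 32851 promoters of the same length (16.0%). Of the genes not called, 2 of 20 factor promoters and 2 of 9 Hox promoters held them. With so few promoters this is a description of the letters. The genes that rose and hold the core were Tbra, Dkk1, Wnt5b, Hoxa10 and Hoxd8. Gsk3b, Nr0b1, Hoxa11 and Hoxd12 hold it and were not called, whereas Axin2, Cdx2, Nkx1-2 and Wnt3a rose and do not hold it in these windows. The promoters of the first 4 are shown, with the core in capitals, because these genes rose over this step and the letters can be located in them. Tbra (chr17:8434173-8434472, plus strand) has it, on the opposite strand, 234 bases before the start. Dkk1 (chr19:30549447-30549746, minus strand) has it 117 and, on the other strand, 174 bases before the start. Wnt5b (chr6:119449337-119449636, minus strand) has it 71 bases before the start, and Hoxa10 (chr6:52234890-52235189, minus strand) has it 243 and 216 bases before the start. The Wnt5b and Hoxa10 windows shown are at alternative starts inside these genes. The start used for the Dkk1 window also lies inside the annotated gene, which begins at base 30549665. The other 2 windows of Wnt5b and the other window of Hoxa10, the one at the start of the annotated gene included in each case, do not hold the letters. Tbra and Dkk1 had 1 window each.
Tbra: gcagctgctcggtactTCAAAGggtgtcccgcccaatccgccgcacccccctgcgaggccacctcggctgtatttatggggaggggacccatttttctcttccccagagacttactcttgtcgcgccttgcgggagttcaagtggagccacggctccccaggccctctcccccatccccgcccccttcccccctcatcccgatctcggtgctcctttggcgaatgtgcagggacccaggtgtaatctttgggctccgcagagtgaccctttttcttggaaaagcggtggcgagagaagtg
Dkk1: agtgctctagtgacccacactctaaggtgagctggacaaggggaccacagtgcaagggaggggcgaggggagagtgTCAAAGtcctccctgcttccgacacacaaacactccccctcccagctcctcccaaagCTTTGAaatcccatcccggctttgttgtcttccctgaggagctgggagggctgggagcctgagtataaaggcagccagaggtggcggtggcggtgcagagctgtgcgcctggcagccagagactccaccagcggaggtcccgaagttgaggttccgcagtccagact
Wnt5b: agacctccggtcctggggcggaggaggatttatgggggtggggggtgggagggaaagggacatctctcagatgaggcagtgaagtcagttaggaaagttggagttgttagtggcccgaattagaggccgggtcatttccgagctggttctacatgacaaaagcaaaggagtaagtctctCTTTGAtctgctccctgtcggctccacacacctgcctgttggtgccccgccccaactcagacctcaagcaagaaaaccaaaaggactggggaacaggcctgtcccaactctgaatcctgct
Hoxa10: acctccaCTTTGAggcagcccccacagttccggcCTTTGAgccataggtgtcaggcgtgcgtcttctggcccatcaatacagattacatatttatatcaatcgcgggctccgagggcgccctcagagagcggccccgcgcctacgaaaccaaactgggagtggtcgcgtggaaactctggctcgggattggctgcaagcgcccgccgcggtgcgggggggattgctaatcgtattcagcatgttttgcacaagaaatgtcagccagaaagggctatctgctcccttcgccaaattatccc

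The pluripotency genes did not move as a group. None of the 3 core genes, the 12 naive pluripotency genes or the 5 other pluripotency genes passed the test. At an unadjusted p under 0.05, Klf4 and Tbx3 were higher and Sox2 and Foxd3 were lower, and voom called Tbx3 alone among these 20 genes. The median differences were −0.99 for the core genes, 0.24 for the naive genes and −1.10 for the others, beside 0.35 for all 34 factors. In bulk RNA, fewer cells that express a gene and less of its RNA per cell cannot be told apart.

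Pou5f1 (Oct4) stood at 8.69, 8.13, 7.97 and 7.36 at day 2 and at 8.59, 8.13 and 4.42 at day 2.5. Its difference of −0.99 ± 0.96 (limma adjusted p = 0.492) turned to 0.32 ± 0.49 without day 2.5 replicate 3, so the sign came from that library. Nanog stood at 2.21, 3.65, 3.94 and 3.90 and then at 4.71, 5.44 and 3.64, a difference of 1.17 ± 0.64 (limma adjusted p = 0.184). Sox2, which NMPs share with neural progenitors, stood at 4.42, 5.36, 5.12 and 5.68 and then at 3.60, 4.39 and 3.51. Each day 2.5 library was below each day 2 library, but the difference of −1.31 ± 0.50 missed the threshold (limma adjusted p = 0.0781), and passed it on the log2(RPKM + 1) scale (adjusted p = 0.0311).

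Foxd3, a forkhead factor of the pluripotent epiblast, showed the largest negative difference, with levels of 0.84, 1.53, −1.03 and −2.30 at day 2 and of −1.51, −2.19 and −6.03 at day 2.5. The lowest level rested on 1 read in replicate 3, and the line 2 library of day 2 fell below both other day 2.5 libraries. The difference was −3.01 ± 1.26 (limma adjusted p = 0.101). It was −3.69 both without day 2 replicate 4 (adjusted p = 0.0285) and with the replicate number as a block (adjusted p = 0.00277). It was −1.61 without day 2.5 replicate 3 (adjusted p = 0.309). With the block Fbxo15 was also called lower, at −1.34 (adjusted p = 0.0449), and Tbx3 higher, at 1.46 (adjusted p = 0.0420).

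Of the naive genes, Klf4 and Tbx3 stood nearest to the threshold. Klf4, a Krüppel-like factor, stood at −0.66, −0.80, −0.89 and −1.41 and then at 0.22, 0.83 and 0.10, and Tbx3, a T-box factor, at −1.95, −1.70, −0.90 and −3.78 and then at −0.48, 0.44 and −0.12. Neither gene's libraries overlapped, and the differences were 1.32 ± 0.46 and 2.03 ± 0.70 (limma adjusted p = 0.0527 for each). Tbx3 passed without day 2 replicate 3 (2.42, adjusted p = 0.0270), and Klf4 without day 2.5 replicate 3 (1.46, adjusted p = 0.0390). Gbx2 did so without day 2.5 replicate 3 as well (1.36, adjusted p = 0.0322). The oocyte and germ cell gene Dppa3 and the Nodal co-receptor gene Tdgf1 were, with Sox2, the 3 factors whose day 2.5 libraries all lay below those of day 2 (8.82% of the 34), with differences of −1.06 ± 0.51 and −1.11 ± 0.53 (limma adjusted p = 0.136 for each). In the other direction 13 factors did not overlap (38.2%). An exact two-sided permutation test of 4 against 3 libraries gave p = 0.0571 for each of these genes, the smallest it allows, so this design cannot pass 0.05 with that test.

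The labelled cell type was checked on markers. All 7 NMP markers had reads in every day 2.5 library, and 6 of them rose, Sox2 being the exception. The 8 naive markers were still present, with levels at day 2.5 that overlapped those at day 2 for 5 of them.

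Within the Hox table, 25 of the 39 genes (64.1%) rose at an adjusted p under 0.05 in limma and none (0.0%) fell, with 26 higher and 0 lower at an unadjusted p under 0.05 and 25 and 0 by voom. The day 2.5 libraries all lay above the day 2 libraries for 24 genes (61.5%). Since Hox genes were nearly silent at day 2, most of these changes started from few or no reads. The limma fit shrank the spread of all 39 genes to a single value, so each Hox difference carries the same standard error, 1.05. The values that depth sets for genes without reads are part of that spread, and the limma p-values of the Hox genes rest on it. Without day 2.5 replicate 3, in which most Hox genes were highest, the count was 16. Centring each library on the median of its 34 factors left 7 higher and 0 lower.

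**Figure D2:**
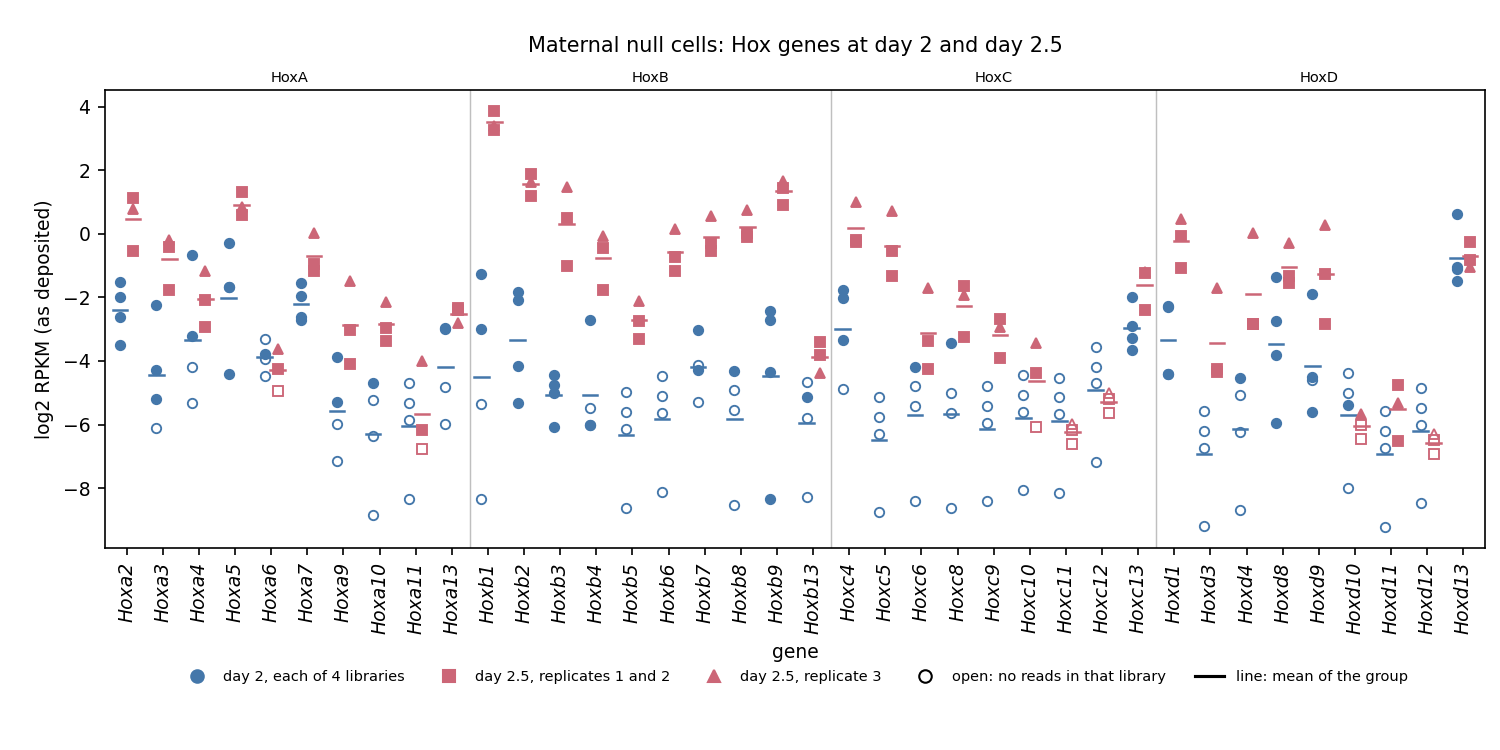
Level of the Hox genes (x axis, by cluster and from paralogue 1 to 13) in log2 RPKM (y axis) in the 4 day 2 libraries (blue circles) and the 3 day 2.5 libraries (red, replicate 3 as triangles), where lines are group means and open symbols mark libraries without reads, whose height is set by depth. Hoxb1 lies between 3.27 and 3.87 at day 2.5, above each of its day 2 libraries, and Hoxc11, Hoxc12 and Hoxd12 are open symbols in all 7 libraries.

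The number of Hox genes with at least 1 read was 19, 12, 21 and 20 in day 2 replicates 1 to 4 and 33, 34 and 36 in day 2.5 replicates 1 to 3. The day 2 library of 126805800 reads detected 20 genes and the day 2.5 library of 28200610 reads detected 36. The other day 2 libraries, of 10279130 to 22787637 reads, were shallower than any day 2.5 library. The part of depth in these numbers was not tested. The summed RPKM of the Hox genes was 3.56 to 9.94 at day 2 and 46.3 to 82.4 at day 2.5, a 9.44-fold difference of the means, without overlap (exact two-sided permutation p = 0.0571, the smallest possible). The HoxB cluster made up 4.55% to 19.9% of that sum at day 2 and 31.2% to 42.9% at day 2.5, and the HoxD cluster 11.0% to 32.2% and then 2.42% to 9.02%. Neither share overlapped between the days (exact permutation p = 0.0571 for each), while the share of HoxA, 47.7% to 79.7% and then 39.8% to 64.0%, did (exact permutation p = 0.343). The lower HoxD share is a part of a larger sum and not a fall in level. In that cluster 5 genes were called higher and 0 lower. Its highest gene in every day 2 library was Hoxd13, which was not called (below).

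Among the Hox1 genes, those at the 3′ end of their clusters, Hoxb1 and Hoxd1 rose. Hoxb1 had 22, 3, 0 and 0 reads at day 2 and 713, 1467 and 686 at day 2.5. Its difference, 8.00 ± 1.05 (limma adjusted p = 3.63e-11), was the largest among the Hox genes. With the common floor the Hoxb1 difference was 6.94, with a much larger limma adjusted p of 0.00261. Hoxd1 had 2, 0, 6 and 49 reads, the last in the deepest library, and then 56, 38 and 73. Its difference was 3.11 ± 1.05 (limma adjusted p = 0.00712), and its call was lost without day 2.5 replicate 3 (2.76, adjusted p = 0.0584).

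At day 2.5 the level per length fell in order through the following genes. Hoxb1 stood at 3.51 ± 0.32 (SD, n = 3). Hoxb2 stood at 1.56 ± 0.35 and Hoxb9 at 1.34 ± 0.39, and these neighbours overlapped, whereas Hoxb1 lay above Hoxb2 in each library by more than either spread. Hoxa5 (0.90 ± 0.37), Hoxa2 (0.45 ± 0.87), Hoxb3 (0.32 ± 1.25), Hoxb8 (0.22 ± 0.45) and Hoxc4 (0.17 ± 0.71) followed, each within the spread of the next. From Hoxb7 (−0.09 ± 0.58) downwards the means were below 0 log2 RPKM, that is, below 1 RPKM.

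HoxB was the cluster with the largest share of called genes, 9 of 10, beside 6 of 11 in HoxA, 5 of 9 in HoxC and 5 of 9 in HoxD. The median differences were 5.09 for HoxB, 2.71 for HoxA, 2.58 for HoxC and 2.42 for HoxD, beside 2.93 for all 39 genes. Counting the genes without day 2 reads at their lower bound and leaving out those without any reads, the medians were 5.15, 2.71, 3.18 and 2.69, beside 3.15, and with the bounds taken without day 2 replicate 4 they were 4.69, 2.71, 2.58 and 2.65, beside 2.90. Within HoxB the called genes ran from Hoxb1 to Hoxb9 without a gap, and only Hoxb13 missed the threshold, at 2.10 ± 1.05 (limma adjusted p = 0.0691).

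In HoxB, Hoxb8 had 3, 0, 0 and 0 reads at day 2 and 78, 117 and 124 at day 2.5, and Hoxb9 had 11, 4, 2 and 1 and then 153, 305 and 230. Hoxb8 and Hoxb9 are trunk genes that act in the patterning of the thoracic region. The differences were 6.05 and 5.80 (limma adjusted p = 3.78e-07 and 9.40e-07). Hoxb3 had 3, 2, 1 and 20 reads and then 67, 260 and 333 (5.39, adjusted p = 4.91e-06), and Hoxb2, a gene of the hindbrain, 2, 2, 13 and 124 and then 253, 553 and 305 (4.91, adjusted p = 2.79e-05). Hoxb4 had 0, 4, 0 and 5 reads and then 24, 82 and 69 (4.31, adjusted p = 0.000277), and Hoxb7 had 0, 0, 3 and 10 and then 40, 46 and 64 (4.09, adjusted p = 0.000495). In each of these 6 genes the groups did not overlap. With the common floor the differences of Hoxb8 and Hoxb9 fell to 4.99 and 4.93, that of Hoxb4 to 3.58 and that of Hoxb7 to 3.77. The limma adjusted p-values of these genes with that floor were, in this order, 0.000127, 0.00285, 0.0111 and 0.00146.

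For 8 Hox genes no read was found in any of the 4 day 2 libraries while day 2.5 gave reads. For these, a lower bound was taken from the reads pooled over each day and divided by the pooled depth, against a floor of 3 reads over the day 2 group. It is a ratio of pooled rates and sets no limit on the fitted fold, which compares means of single libraries. Hoxc5 had 67, 53 and 143 reads at day 2.5, and its pooled rate was at least 149-fold higher, beside a fitted fold of 68.5 and of 26.9 with the common floor. Hoxb6, with 28, 51 and 62 reads, was at least 79.9-fold higher in pooled rate, beside a fitted 38.3. For Hoxd3 (7, 9 and 36 reads), Hoxb5 (9, 18 and 18) and Hoxc9 (12, 7 and 9) the pooled bounds were 29.5-fold, 25.5-fold and 15.9-fold, beside fitted folds of 11.3, 12.3 and 7.82. These 5 were called. Hoxd11, Hoxc10 and Hoxa11 were not, with 10, 9 and 5 reads in all and pooled bounds of 5.67-fold, 5.1-fold and 2.83-fold. The bounds cover counting error only, and day 2 replicate 4, the deepest library, set most of their size. Without it, an alternative chosen after seeing the data, each was 3.60 times lower, at 41.5-fold for Hoxc5, 22.2-fold for Hoxb6, 8.20-fold for Hoxd3, 7.09-fold for Hoxb5 and 4.41-fold for Hoxc9, and that of Hoxa11, at 0.788, no longer gave a direction. The Hoxd3 and Hoxc9 calls were lost without day 2.5 replicate 3 (adjusted p = 0.0675 and 0.0553), and that of Hoxc9 also without day 2.5 replicate 1 (adjusted p = 0.0581).

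**Figure D3:**
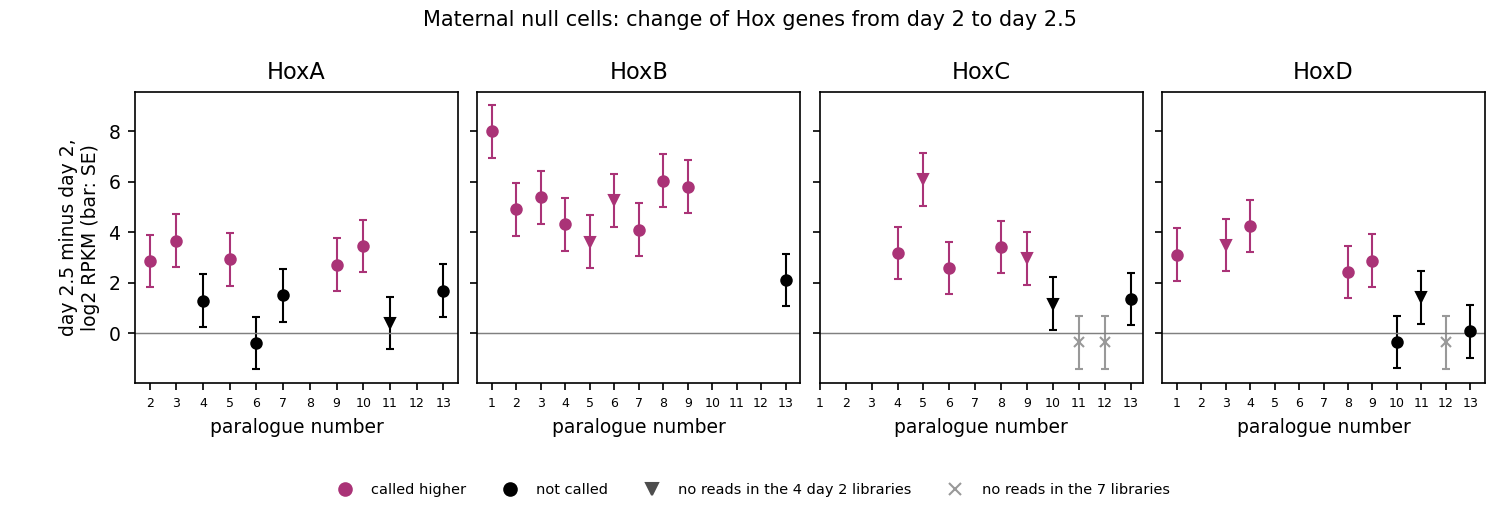
Difference between day 2.5 and day 2 (y axis, log2 RPKM, with the limma standard error) for the Hox genes by paralogue number (x axis) in the 4 clusters, with called genes in purple, triangles for genes without reads in all 4 day 2 libraries and crosses for genes without reads in all 7. HoxB holds an unbroken run from 1 to 9.

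By position, 24 of the 27 genes of Hox1 to Hox9 rose, and 1 of the 12 genes of Hox10 to Hox13 did. The median differences were 3.41 and 0.78, with the bounds 3.66 and 1.68, and with the bounds taken without day 2 replicate 4, 3.18 and 0.66. The 3 genes of Hox1 to Hox9 that did not pass were all in HoxA. Hoxa4 had 0, 0, 16 and 22 reads and then 12, 9 and 20 (1.28, limma adjusted p = 0.280), Hoxa6 had 0, 0, 0 and 8 and then 0, 2 and 2 (−0.39, adjusted p = 0.751), and Hoxa7 had 17, 10, 7 and 60 and then 41, 64 and 82 (1.50, adjusted p = 0.213). Hoxa7 passed with the common floor (adjusted p = 0.0263). Their neighbours Hoxa3 and Hoxa5 rose, by 3.66 and 2.93 (limma adjusted p = 0.00204 and 0.0111), the former from 7, 0, 20 and 21 reads to 56, 196 and 148.

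The called gene of the 5′ group was Hoxa10, an abdominal-type gene with 0, 0, 2 and 0 reads at day 2 and 10, 18 and 21 at day 2.5 (3.45, limma adjusted p = 0.00320), or 2.26 with the common floor. Hoxd13, the most terminal HoxD gene, had reads in all 7 libraries, with levels of −1.50, 0.61, −1.12 and −1.06 and then −0.81, −0.26 and −1.04, a difference of 0.06 ± 1.05 (limma adjusted p = 0.951). Hoxc13 behaved alike in having reads throughout, at 1.35 (adjusted p = 0.260). The reads of Hox10 to Hox13 summed to 30 to 232 per library at day 2 and 96 to 189 at day 2.5. Across the 36 Hox genes with any read, the paralogue number and the difference had a Pearson r of −0.52 and a Spearman rho of −0.54, a description over genes that share the same 7 libraries. For Hoxc11, Hoxc12 and Hoxd12 the value differed by −0.37 through depth alone, and no fold is given.

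Day 2.5 replicate 3 weighed most in HoxD. It was the highest of the day 2.5 libraries for all 5 called HoxD genes, by a median of 2.33 over the mean of the other two, and for 18 of the 25 called Hox genes in all. Hoxd4 had 0, 0, 2 and 0 reads at day 2 and 13, 18 and 84 at day 2.5 (4.25, limma adjusted p = 0.000310), and 3.29 without replicate 3 (adjusted p = 0.0275). Leaving out day 2.5 replicate 3 ended 9 calls, those of Hoxa2, Hoxa9, Hoxc4, Hoxc6, Hoxc9, Hoxd1, Hoxd3, Hoxd8 and Hoxd9, with differences of 1.87 to 2.84 in that fit. Leaving out day 2.5 replicate 2 ended 5, those of Hoxa2, Hoxa5, Hoxc6 and Hoxd8 (2.53 to 2.73) among them. Leaving out day 2.5 replicate 1 ended those of Hoxa9, Hoxc9 and Hoxd8 (2.78, 2.72 and 2.55). Of the day 2 libraries, leaving out replicate 1 ended the calls of Hoxa5, Hoxa9, Hoxd8 and Hoxd9 (2.13, 2.18, 1.59 and 2.39), leaving out replicate 2 that of Hoxd8 (2.30), and leaving out replicate 4 that of Hoxc6 (1.68). In each of these fits the direction of all 25 stayed the same. All 9 called HoxB genes were called in each of the 7 fits that left out 1 library.

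The same step in wild-type cells (Smchd1[fl/+], an allele that was not deleted), with the same agents and 4 libraries a day, gave the comparison closest to this one. It tests whether the change over this step differed between the genotypes. Loss of maternal SMCHD1, the deleted allele in the cells themselves and differences between lines cannot be told apart in it. The test was the interaction of day and genotype over 15 libraries in limma. No factor (0.0%) and no Hox gene (0.0%) passed it. At an unadjusted p under 0.05 there were also 0 factors and 0 Hox genes, and voom gave 0 calls in each table, with 0 factors and 3 Hox genes at an unadjusted p under 0.05.

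**Figure D4:**
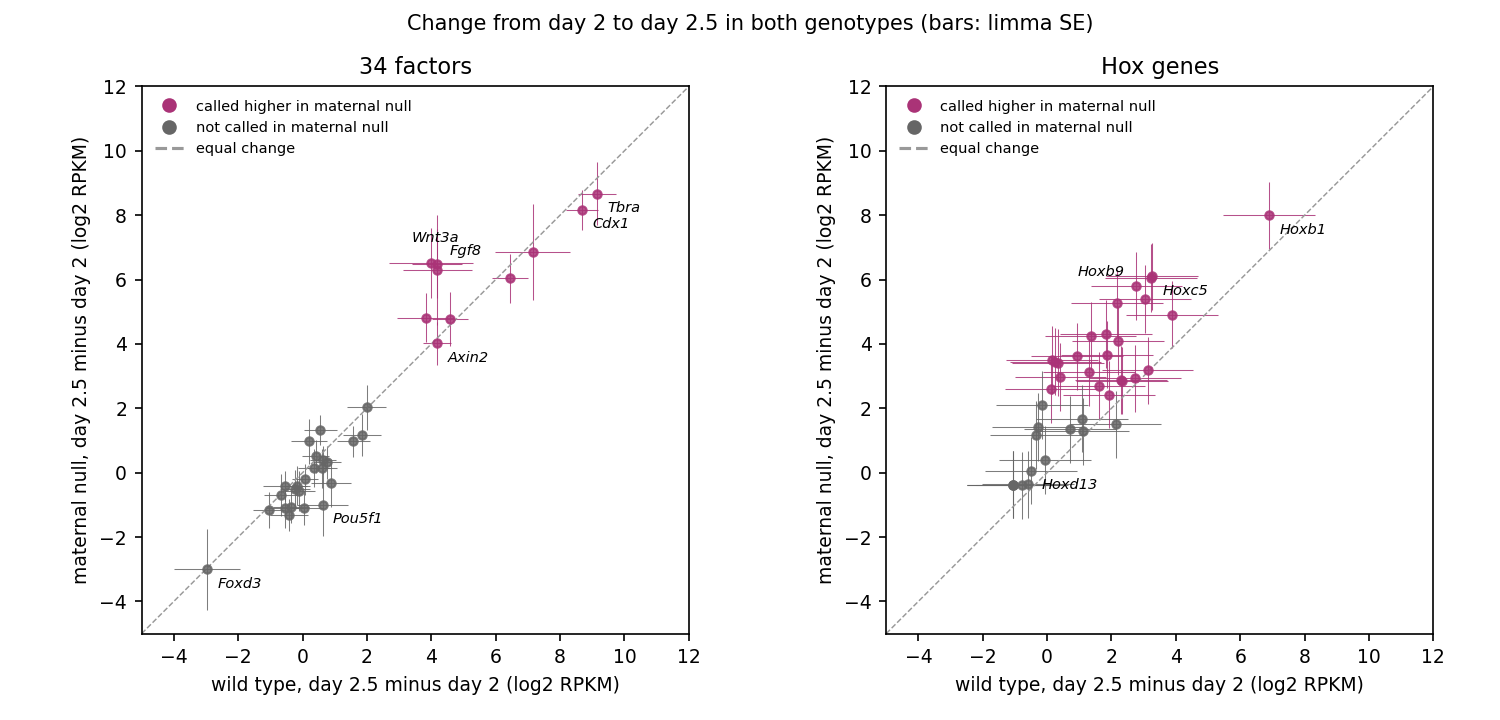
Change from day 2 to day 2.5 in wild-type (x axis) and maternal null cells (y axis), both in log2 RPKM with limma standard errors, for 34 factors (left) and the Hox genes (right), with genes called in maternal null cells in purple and equal change as a dashed line. The axis factors lie near the line, and most Hox genes lie above it, none of them past the test.

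For the axis factors and Axin2 the changes in the genotypes were close. Tbra rose by 8.67 in maternal null and 9.15 in wild-type cells, a difference of −0.48 (95% confidence interval −2.97 to 2.00). Cdx1 differed by −0.51 (−2.15 to 1.13), Cdx2 by −0.41 (−2.45 to 1.62), Nkx1-2 by −0.29 (−4.72 to 4.15) and Axin2 by −0.16 (−1.75 to 1.43). The intervals leave room for differences of more than 2-fold in each. Over all 34 factors, the difference between the days was more positive in maternal null cells for 10 and more negative for 24, with a median of −0.26. The 6 ligands all had a more positive difference between the days in maternal null cells than in wild type. This was most for Wnt3a at 2.52 (−1.58 to 6.63) and Fgf8 at 2.31 (−0.69 to 5.32, limma adjusted p = 0.978), both with few day 2 reads. For Wnt4 the differences were negative in both genotypes, −0.42 in maternal null and −0.55 in wild-type cells.

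Of the 36 Hox genes with reads in these 7 libraries, 34 had a more positive difference between the days in maternal null cells than in wild type. The median over the 36 was 1.61, and none passed the test. Values of genes without reads follow depth, and they enter this comparison in both genotypes. Hoxc11, Hoxc12 and Hoxd12, without reads in these 7 libraries and left out of the 36, also differed in this direction, by 0.70 each. How much of the pattern came from depth was not tested. The difference nearest to the threshold was that of Hoxd3, 3.35 (−0.24 to 6.93, limma adjusted p = 0.577), a gene without day 2 reads in maternal null cells. Hoxb1 differed by 1.11 (−2.47 to 4.70) and Hoxd1 by 1.82 (−1.76 to 5.41). The wild-type side rests in part on day 2 replicate 4, whose Hox values corresponded to a total of 346039 reads and in which 2 Hox genes had reads, so that its values for genes without reads were high. In wild-type cells on their own, 13 factors (38.2%) rose, 1 (2.94%) fell and 1 Hox gene (2.56%) rose, and these counts are not a test of a difference from maternal null cells. Wild-type day 2 replicate 3 also stood apart, at 4.63 for Ctnnb1 and 4.88 for Pou5f1, as maternal null day 2.5 replicate 3 did. The former is a starting point in wild type and the latter an end point in maternal null cells. The counts above include both, and their part in the Hox pattern and in the factor changes was not tested. Leaving out the 3 libraries that stood apart (wild-type day 2 replicates 3 and 4 and maternal null day 2.5 replicate 3) gave no call of the difference either.

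For scale, the day 2.5 levels were set beside the later days in maternal null cells, without a test. Tbra stood at 6.26 ± 1.05 (SD, n = 3) at day 2.5, 6.99 ± 0.58 (n = 4) at day 3 and 6.05 ± 0.65 (n = 4) at day 4, and Hoxb1 at 3.51 ± 0.32, 4.06 ± 0.55 and 3.10 ± 1.81. Both were thus within their spread of the later levels after 12 h. Nkx1-2 stood at 5.31 ± 1.16, 5.19 ± 1.02 and 0.80 ± 1.39, lowest on the last day. Hoxb9 went on from 1.34 ± 0.39 to 3.18 ± 0.72 and 4.05 ± 0.32, and Hoxc10 from −4.62 ± 1.34 to −3.31 ± 0.62 and 2.45 ± 1.75.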

How the data were processed

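RNA was extracted from mESCs during differentiation, polyA libraries were sequenced, and, per the labels, reads were trimmed with Trim Galore 0.4.4 and mapped with HISAT2 2.0.5 to GRCm38.p6. The authors quantified genes in SeqMonk and deposited log2 RPKM values, used here as deposited. The raw count table, also deposited, was not used, because the names of its time course columns do not match these libraries. Whole reads were recovered with exon lengths of GENCODE: 3283 of 3285 values lay within 0.02 of a whole read. These recovered reads are not the deposited counts.

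Day 2.5 was compared with day 2 in limma 3.58.1 (lmFit, eBayes; R 4.3.3), with Benjamini-Hochberg adjustment over each table apart and a threshold of 0.05, and by exact permutation (scipy 1.17.1). The limma scripts were tested on simulated data. The members, lists and tests were chosen with earlier results of these data known. Values in every library are given for called genes with the largest differences and for a list of Wnt, axis, pluripotency and Hox1 genes. Klf4, Tbx3, Gbx2 and further Hox genes with few reads were added after their values were seen. A bound used a floor of 3 reads over the day 2 group and covers counting error only. The values of 1 Hox gene, which was part of every fit, count and sum, are not reported or plotted here. The common floor raised values to that of 0 reads in the shallowest library.

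Replicate numbers were checked for pairing. In the factor table the deviations of same-numbered libraries from their day means correlated (r = 0.39, 0.48 and 0.31), so the numbers were taken to pair the samples, and values from the fit with the replicate number as a block (paired, 3 pairs) are given where a call changed.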

Additional observations from a re-analysis of the deposited data

Results flagged for a closer look

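Among 32 genes whose day 2 libraries were examined for a value far from the others, 2 had one, and chance alone gives about 1 in 20 such groups. For Hoxb4 the highest of the 4 maternal null day 2 libraries was replicate 2 at −2.72 log2 RPKM, which rested on 4 reads, while the next was −5.49. For Nanog the lowest was replicate 1 at 2.21 log2 RPKM, with 236 reads, while the next was 3.65. The causes were not tested.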

How the results depend on the processing

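Of the 10 factors that rose, 9 or 10 were also called under each alternative except a filter on genes with a mean log2 RPKM above 0, which left 6 of them because the other 4 were not tested. Leaving out 1 library in turn gave 9 to 12 factors higher and 0 to 1 lower. The count of factors called lower, 0 as deposited, was 1 with log2(RPKM + 1) (Sox2), 20 when centred on the median of the factors, 2 with the replicate block and 1 with all 12 groups in 1 fit. Of the Hox genes, 1 was called with that filter, which left 1 to test, and 7 when centred on the factor median, and leaving out 1 library gave 16 to 25. The log2(RPKM + 1) scale lost 6 of the 25 Hox calls (Hoxa9, Hoxc6, Hoxd3, Hoxd4, Hoxd8 and Hoxd9) and gained Hoxa7. On the log2(RPKM + 0.1) scale Hoxc6 and Hoxd3 were lost and Hoxa7 and Hoxc13 gained. The common floor lost Hoxc6, Hoxd8 and Hoxd9 (limma adjusted p = 0.0771, 0.0834 and 0.0712) and gained Hoxa7 and Hoxb13. The sign turned without day 2.5 replicate 3 for Pou5f1, Ctnnb1 and Gsk3b, whose differences ranged over −1.76 to 0.32, −0.79 to 0.57 and −0.53 to 0.11 on leaving out each library, and for Zfp42 (0.10), Pecam1 (0.07) and Hoxa11 (−0.43). The cause was not tested. Centring on the factor median turned Nanog to −0.76 and, past the threshold, Esrrb (−1.42), Klf2 (−1.78), Klf5 (−1.61), Sall4 (−1.80), Tfcp2l1 (−1.54) and Gbx2 (−0.95), besides genes not called in either fit. The rise of the called factors is part of the shift that this centring takes from every gene. Gsk3b turned to 0.061 when centred on Ctnnb1 and Gsk3b, which by construction makes the differences of these 2 genes equal and opposite. Counts of genes whose libraries do not overlap were recomputed after seeing the data. For factors lower at day 2.5 they were 1 centred on Ctnnb1 and Gsk3b, 20 centred on the factor median and 3 to 5 leaving out 1 library. For Hox genes they were 9 higher and 2 lower centred on the factor median, and 0 to 4 lower leaving out 1 library.

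In the Hox table same-numbered libraries did not deviate together (r = −0.09, −0.01 and 0.17). With the replicate block 25 Hox genes were called, Hoxc6 being lost (1.68, limma adjusted p = 0.0546) and Hoxa13 gained (2.07, limma adjusted p = 0.0163). The difference between genotypes gave 0 calls under every alternative run, the block, voom (chosen after seeing the data) and the fit without the 3 libraries that stood apart (likewise) included.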
